A study of Rattus norvegicus with 24 samples.

Results

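Eicosanoid synthesis genes were followed across 24 samples of rat lung. They were Alox15, Alox5, Alox5ap, Alox12, Lta4h, Ltc4s, Ptgs1, Ptgs2, Ptges and Hpgd, 10 of the 30667 genes in the deposited table, and were chosen by name. Alox15 was singled out because of its values in these samples, so its levels are given as a description with no test, and the other 9 genes were tested within a fit of all genes. The samples come from a rat lung cancer model in which smoky coal, a bituminous coal, was the inducing agent, and mRNA of lung tissue was sequenced. Each title is a letter, A, B, C or G, with a number from 1 to 6, which gives 6 samples per letter and 4 per number. Every sample, G included, carries the smoky coal label, and the labels name no control, strain, age, dose or time and do not say what a letter or a number stands for. Nothing in the labels says that the samples of a letter came from separate animals, so the p-values measure the spread between these samples, which may be in part technical.

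Eicosanoids are short-lived signalling lipids made from arachidonic acid, which phospholipases A2 release from membranes. In the leukotriene branch the lipoxygenase Alox5, presented with its substrate by the membrane protein Alox5ap, makes leukotriene A4, which Lta4h converts to the neutrophil attractant leukotriene B4 and Ltc4s to the cysteinyl leukotrienes that contract airways. In the prostaglandin branch the cyclooxygenases Ptgs1 and Ptgs2 make prostaglandin H2, Ptges turns it into prostaglandin E2, and Hpgd inactivates prostaglandins, a step in which the lung has a large part. Alox12 is the lipoxygenase of platelets. Alox15 makes hydroxylated fatty acids and lipid mediators in macrophages, eosinophils and airway epithelium, and is also the classic lipoxygenase of reticulocytes, the young red cells that clear their mitochondria as they mature.

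All values look like normalized read counts per gene, adjusted by the authors toward a common library size by a method that is not stated, and are called normalized counts here. They summed to between 61717516 and 66007148 per sample, and the number of reads behind them is unknown. Levels are compared between samples within a gene and not between genes, because no gene lengths were used and the mouse build GRCm38 is named in the submitters' processing notes although the animals were rats. The lung markers were present in every sample, with the surfactant gene Sftpc between 603887 and 932776 and the club cell gene Scgb1a1 between 303417 and 652541. A pair of samples held transcripts of tissue from outside the lung parenchyma: the summed skeletal muscle list was 78416 in A4 and 19194 in B4 against at most 3639.7 in the other 22, and A4 also held squamous epithelium transcripts. In bulk tissue, fewer cells of a type and less RNA per cell cannot be told apart.

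The promoters of 4 members are shown because 3 of them, Alox5, Lta4h and Ltc4s, were higher together in the samples numbered 3, where the fourth, Hpgd, was lower. Each is the 250 bases before the annotated start, 5′ to 3′ on the gene's strand, from RefSeq on build GRCr8, and 8 of the 10 members had an entry. Alox15 and Alox5ap had none. Capitals mark matches on either strand to one of 4 forms. These were GGGCGG, known as the GC box, then TGATAA, which factors of blood cell development bind, GCGTG from the xenobiotic response element, and TGACG from the cyclic AMP response element.
Alox5, chr4:151251127-151251376, minus strand: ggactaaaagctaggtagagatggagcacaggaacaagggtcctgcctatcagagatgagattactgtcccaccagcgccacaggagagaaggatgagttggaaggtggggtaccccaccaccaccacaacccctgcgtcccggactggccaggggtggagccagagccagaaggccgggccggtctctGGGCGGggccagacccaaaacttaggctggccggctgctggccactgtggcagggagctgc
Lta4h, chr7:29856621-29856870, plus strand: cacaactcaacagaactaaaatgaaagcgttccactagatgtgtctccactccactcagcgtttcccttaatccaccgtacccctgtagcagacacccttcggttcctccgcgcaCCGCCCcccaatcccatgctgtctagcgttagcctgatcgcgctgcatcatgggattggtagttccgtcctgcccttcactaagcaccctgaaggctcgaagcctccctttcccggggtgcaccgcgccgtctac
Ltc4s, chr10:35063595-35063844, minus strand: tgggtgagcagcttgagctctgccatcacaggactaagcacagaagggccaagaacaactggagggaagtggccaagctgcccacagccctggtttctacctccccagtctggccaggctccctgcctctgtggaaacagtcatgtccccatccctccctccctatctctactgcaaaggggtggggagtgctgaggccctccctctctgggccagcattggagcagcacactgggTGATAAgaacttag
Hpgd, chr16:39034832-39035081, minus strand: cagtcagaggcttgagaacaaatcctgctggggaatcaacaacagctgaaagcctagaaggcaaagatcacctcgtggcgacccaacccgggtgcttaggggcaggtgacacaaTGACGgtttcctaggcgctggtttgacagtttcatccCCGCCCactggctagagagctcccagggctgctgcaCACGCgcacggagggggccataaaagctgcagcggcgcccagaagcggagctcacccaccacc

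The motifs found were few and common. A GC box, counted from its first base, lay 61 bases before the start of Alox5, 135 before Lta4h and 99 before Hpgd, and 30.5% of 33469 rat promoter windows of this length hold one. Ltc4s held none and had a TGATAA match 14 bases before its start, a form found in 7.97% of the windows. Hpgd also held GCGTG at 63 bases and TGACG at 136, which occur in 25.9% and 18.2% of the windows. The forms TATAAA (12.9%) and AGATAA (10.3%) were also searched, and neither was found in these 4 windows; a promoter with no match says only that these letters are not in the window. Of the 6 forms searched, none was in all 3 of the promoters of Alox5, Lta4h and Ltc4s. Ptgs1 of the prostaglandin branch was also higher at number 3. Its promoter, which is not shown, held GCGTG at 143 bases and none of the other forms.

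Alox15 ranged from 1466 normalized counts in G2 to 49083 in B4, a ratio of 33.5 that only Ptges among the 10 genes exceeded. In letter A it was 5014, 3097, 11108, 48612, 25889 and 6801 for numbers 1 to 6. In letter B the same 6 values were 4312, 2865, 8757, 49083, 18724 and 6832. In letter C they were 3340.5, 4518, 13272, 40089, 23405 and 6341. Letters A, B and C therefore held the same pattern, low at numbers 1 and 2, higher at 3, highest at 4, and lower again at 5 and 6. Letter G had no such peak, with 2710.4, 1466, 2767, 1949, 2867 and 4128.

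Within letters A, B and C the spread of Alox15 inside a number was small beside the steps between numbers. The mean was 3493 ± 895 (SD, n = 3) at number 2 and 4222 ± 841 at number 1, and these overlapped sample by sample. Above them came number 6 at 6658 ± 275, number 3 at 11046 ± 2258, number 5 at 22673 ± 3638 and number 4 at 45928 ± 5062. Numbers 6, 3, 5 and 4 did not overlap with each other or with numbers 1 and 2, so their order was the same in each of the 3 letters. Every A, B and C sample was above the G sample of its own number. The ratio of the A, B and C mean to G was 1.56 at number 1, 2.38 at number 2, 3.99 at number 3, 23.6 at number 4, 7.91 at number 5 and 1.61 at number 6. The gap between G and the other letters was thus wide at numbers 3 to 5 and small at 1 and 6.

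By letter alone the levels of Alox15 overlapped. The medians were 9807 in C, 8955 in A, 7795 in B, against 2739 in G (n = 6 each), and the G range of 1466 to 4128 reached above the lowest A, B and C samples. The mean ± SD was 16754 ± 17628 in A, 15096 ± 17565 in B, 15161 ± 14309 in C, and for G it was 2648 ± 910, so A, B and C did not differ beyond their spread. On the log2(value + 1) scale G was lower than A by 2.08, than B by 1.90 and than C by 2.03, and leaving out any 1 sample kept these differences between -2.44 and -1.42. Differences between letters made up 35.2% of the variance of Alox15 on that scale and differences between numbers 46.6%, with 18.2% in neither. For the median gene the shares were 9.45%, 37.1% and 48.9%.

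**Figure D1:**
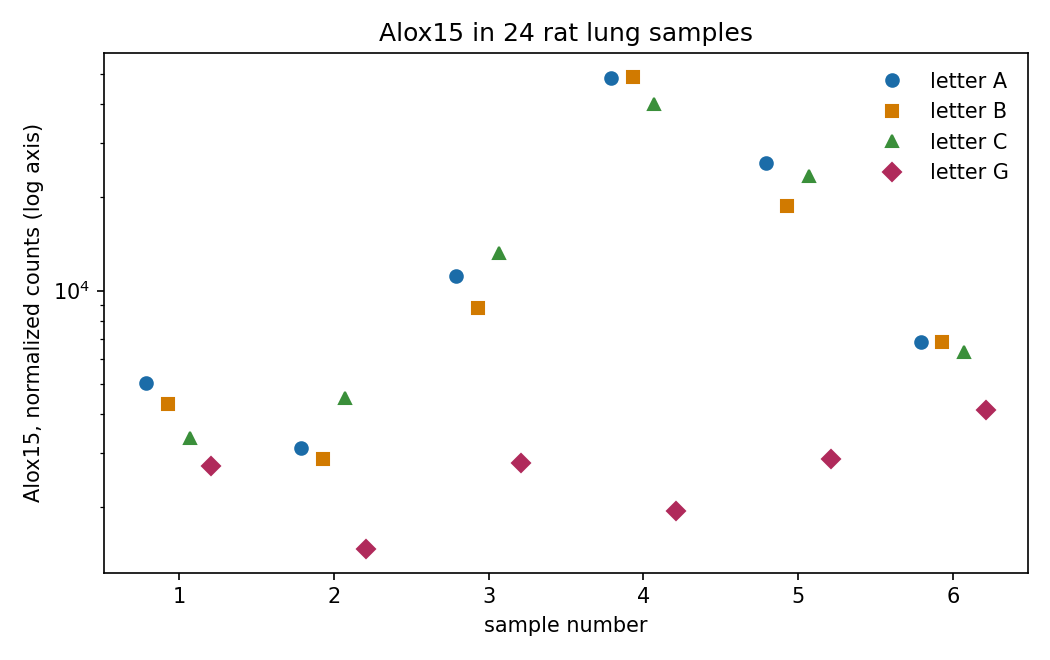
Alox15 in normalized counts (log axis) for each of the 24 samples, by sample number, with a symbol for each letter. The A, B and C symbols rise to 40089 to 49083 at number 4, while the 6 G samples stay between 1466 and 4128.

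The genes whose levels followed Alox15 most closely were red cell genes. Over the 24 samples Spearman's rho with Alox15, among 21922 genes with a mean of at least 10, was highest for Fech, which inserts iron into haem, at 0.98. Next came Hemgn, a nuclear protein of blood-forming cells (0.95), Kel, the Kell blood group antigen (0.95), Bpgm, which makes the red cell's oxygen-release regulator bisphosphoglycerate (0.94), Slfn14 (0.94), Epb42, a protein of the red cell membrane skeleton (0.94), and Ranbp10 (0.94). Within the 18 A, B and C samples these 7 rho values were 0.90 to 0.99, and within the 6 G samples they ran from 0.09 for Slfn14 to 0.89 for Bpgm and Ranbp10. Samples with the same number resembled each other, so these are fewer than 24 independent points, and the rho values are given without a p.

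Several of these genes had a gap to letter G at number 4 nearly as wide as that of Alox15, though not the same profile at every number. At number 4 the ratio of the A, B and C mean to G was 20.7 for Kel, 15.5 for Hemgn and 12.4 for Slfn14, beside 23.6 for Alox15. At number 3 it was 8.27 for Kel and 8.58 for Slfn14, beside 3.99 for Alox15, and Hemgn, unlike Alox15, was higher at number 6 (mean 223) than at number 3 (mean 187). The number 4 ratio was 17.9 for Slc4a1, the band 3 anion exchanger of the red cell membrane, whose rho with Alox15 was 0.93. That ratio was smaller for the haemoglobin genes, 5.50 for Hba-a1 and 6.33 for Hbb-bs, and for the haem synthesis genes Alas2 (6.28) and Fech (2.90).

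The 7-gene red blood cell list, which holds the haemoglobin genes, Alas2 and Slc4a1 among others, moved with Alox15. Its summed level ran from 126091 in G2 to 1083377 in A4, a ratio of 8.59, with a rho of 0.90 with Alox15 over 24 samples and 0.85 over the A, B and C samples. By letter the sum was 156644 to 1083377 in A, 192441 to 868618 in B, 161918 to 773911 in C, against 126091 to 313650 in G. In the fit by number, 5 of the 7 genes were higher at number 4, against 2.72% of all genes, and the same 5 were lower at numbers 1 and 2, against 6.25% and 10.3% (limma, adjusted p under 0.05). This fit pools the letters, and the rise at number 4 was in A4, B4 and C4. In letter G the sum was 148512 in G4 and highest in G6. The part of the red cell genes in the Alox15 levels was not tested.

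Alox15 was not a fixed share of the red cell transcripts. Per 1000 normalized counts of the list it was 44.9 to 56.5 in A4, B4 and C4, 37.6 to 39.9 at number 3, 32.8 to 39.0 at number 5, 19.3 to 20.6 at number 1 and 14.9 to 19.8 at number 2. At number 6 it was 8.71 to 15.7, no higher than the 11.6 to 17.3 of the G samples. The samples numbered 6 thus had much haemoglobin mRNA and little Alox15: Hba-a1 was 359397 in A6 and 133906 in A3, while Alox15 was 6801 and 11108. Slc4a1 differed between these 2 samples in the direction of Alox15, with 1362 in A6 and 3124 in A3. Within letter G, the sample G6 was the highest in Alox15, in the list and in Slc4a1 alike.

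**Figure D2:**
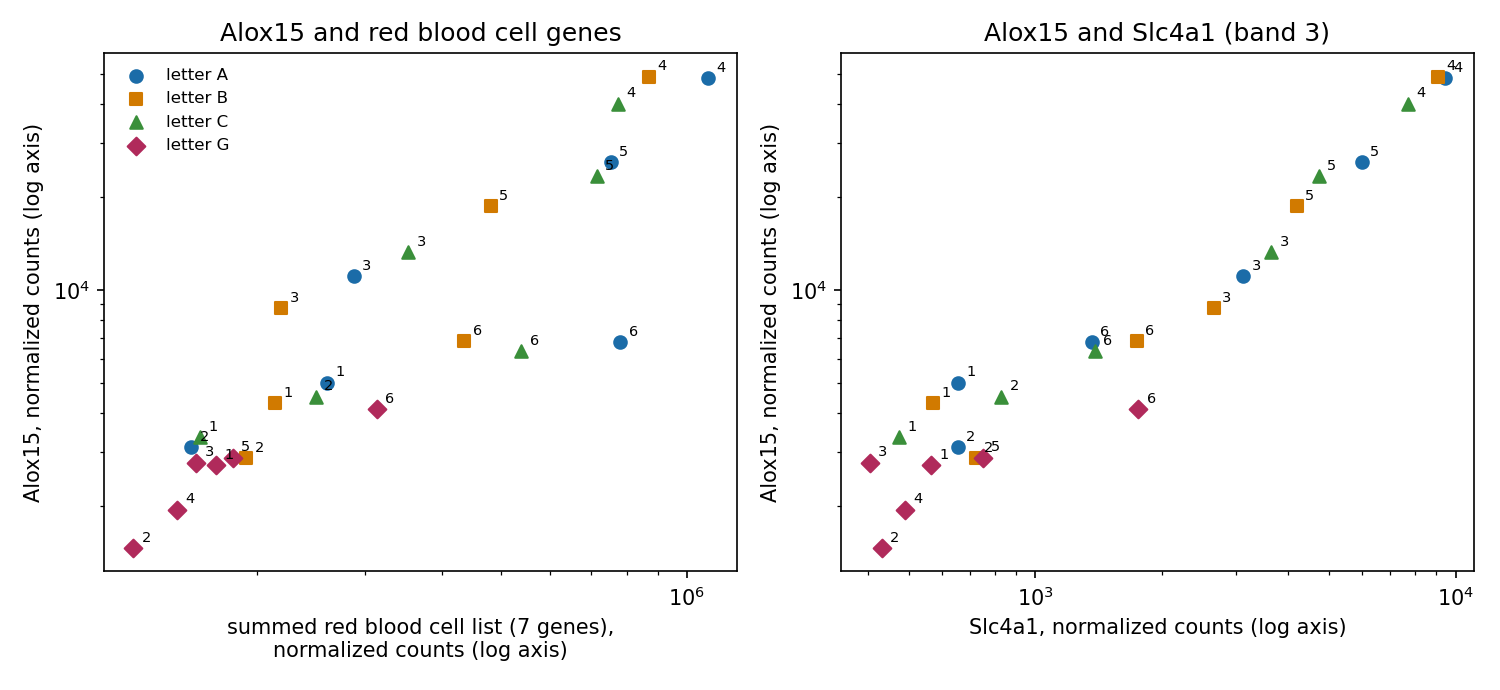
Alox15 against the summed red blood cell list (left) and against Slc4a1 (right), in normalized counts on log axes, 1 point per sample labelled with its number. The A, B and C samples numbered 6 lie below the others on the left, and on the right they lie near the band formed by the remaining samples.

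Other cells that can hold Alox15 were compared through their marker lists. The eosinophil list, 6 of 8 genes in the table, summed to between 1134 and 2648 and had a rho of -0.32 with Alox15. Siglecf, which alveolar macrophages also carry, made up most of that sum with 963 to 2482. Among the other 5 genes, Epx was 23.5 to 67.4, Ccr3 20.9 to 172 and Prg2 4.71 to 62.6, while Il5ra and Prg3 were at 0 in 2 and 5 of the samples. The alveolar macrophage list had a rho of 0.17, the type 2 immunity list -0.04, the neutrophil list -0.09 and the mast cell list 0.17. The platelet list had a rho of 0.61, and of 0.82 within the A, B and C samples, close to the 0.85 of the red blood cell list there. It ranged 2.31-fold, from 1519 to 3504, with its highest sum in G6, and at number 4, 0 of its 7 genes passed (3 at an unadjusted p under 0.05). At number 2, 5 of the 7 were lower, against 10.3% of all genes that were lower there. Of the airway epithelium, the club cell list had a rho of 0.37 and the ciliated cell list 0.26. At number 4, 3 of 5 club cell genes and 3 of 8 ciliated cell genes were higher, against 2.72% of all genes that were higher there. The part of these cells in the Alox15 levels was not tested. Beside Alox15 on rat chromosome 10 lie Alox12e and Pelp1 in the GRCr8 order: Pelp1 had a rho of 0.06 with a 1.33-fold range, and Alox12e stayed between 4.11 and 29.7 normalized counts. Alox15, Alox12 and Alox12e are related copies, and how shared reads were counted is not stated, so a part of each value is uncertain. Among the other 9 members, the highest rho with Alox15 was 0.50, for Ptgs2.

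By letter, 0 of the other 9 members passed the test. The F test across the 4 letters (limma, Benjamini-Hochberg over all genes, threshold 0.05) called 0.00652% of all genes, and 1 member, Ptgs2, had an unadjusted p under 0.05. The 6 pairs of letters called 0 of the 9 members as well, against 0.00652% of all genes for G against A and for G against C, 0.00326% for G against B and 0% for the 3 pairs among A, B and C. This fit has no term for the number. Its background of letter calls was almost empty, and gives the members little to be read against. Of all genes, 1199 had an unadjusted p under 0.05 in its F test. With the number as a block, limma called 1.27% of all genes for G against A, Ptgs2 among them, and 0.0391% in the F test.

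Ptgs2, the inducible cyclooxygenase, was the member with the lowest letter p. In letter A it was 132 at the lowest, 256 at the median and 498 at the highest. It was 193 to 263 in B, 122 to 346 in C, against 85.5 to 177 in G. The mean ± SD (n = 6) was 285 ± 122 in A, 221 ± 28.3 in B, 214 ± 94.3 in C, against 127 ± 34.4 in G. Letter G overlapped with A and C and lay below all 6 B samples. G was lower than A by 1.09 on the log2 scale (SE 0.27, limma adjusted p = 0.261), than B by 0.82 and than C by 0.67 (adjusted p of at least 0.9998), so no pair passed in this fit, which has no term for the number. Between numbers Ptgs2 did not pass either (adjusted p = 0.260).

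By number, 7 of the 9 members differed, a share of 77.8%. The F test for number in the fit of letter and number called 31.5% of all genes. The 7 were Alox5, Alox5ap, Lta4h and Ltc4s of the leukotriene branch, Alox12, and Ptges and Hpgd of the prostaglandin branch, while Ptgs1 (adjusted p = 0.0756) and Ptgs2 did not pass. To see which number carried a difference, each number was compared with the mean of the other 5, and these 6 comparisons share all their samples. At number 3, 6 members passed, 5 higher and 1 lower, against 4.98% of all genes (2.89% higher and 2.09% lower). At number 2, 4 passed, 2 in each direction, against 21.8% of all genes (11.5% higher and 10.3% lower). At number 1, 2 passed, 1 in each direction, against 11.9% of all genes (5.62% higher and 6.25% lower). At number 4, 2 passed, again 1 in each direction, against 4.74% (2.72% higher and 2.02% lower). At number 6, 1 passed as higher against 8.13% (4.11% higher and 4.02% lower). At number 5, 0 passed in limma against 1.97% of all genes, with 3 members at an unadjusted p under 0.05. The median log2 difference of the 9 members was 0.32 at number 3, where that of all genes was -0.00.

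All 4 leukotriene synthesis genes were higher in the samples numbered 3. Alox5, the branch's entry enzyme, was 4542, 3695, 4599 and 3693 normalized counts in A3, B3, C3 and G3. In the 20 other samples it was 1881 to 3660.4, so the 2 sets did not overlap. The log2 difference was 0.54 (SE 0.098, limma adjusted p = 0.00246). Alox5 was lower at number 2, with 2262, 2680.2, 2992 and 1881, by 0.38 (adjusted p = 0.00699), and this call was lost without G2 (-0.27, adjusted p = 0.0648). At number 1 it stood at 3506 ± 127 (SD, n = 4), the second highest mean.

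Alox5ap, the partner that presents arachidonic acid to Alox5, was 1380.4, 1463, 1536 and 1189.7 at number 3. The other samples lay between 813 and 1288, and G3 fell among them while A3, B3 and C3 stood above. The log2 difference was 0.45 (SE 0.094, limma adjusted p = 0.00684). The call was lost without B3 (adjusted p = 0.0514) or without C3 (adjusted p = 0.0612), and so was that of the F test (0.0596 and 0.0594). Alox5 and Alox5ap followed each other across the 24 samples with a rho of 0.78, the highest of any 2 members of this branch.

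Lta4h, the hydrolase that makes leukotriene B4, was 17187 in A3, 14140.3 in B3, 14638 in C3 and 13625 in G3. The highest of the other 20 samples was C4 at 13518, just below G3, and the lowest A4 at 8791. The log2 difference at number 3 was 0.49 (SE 0.077, limma adjusted p = 0.000803). No other number passed for this gene.

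Ltc4s, which adds glutathione to make leukotriene C4, had the largest difference of the 4 at number 3. It was 110.3 in A3, 142 in B3, 155 in C3 and 177 in G3, a log2 difference of 0.81 (SE 0.13, limma adjusted p = 0.000746). Number 4 came next, with 132, 109, 128 and 97.9. A4 and C4 stood above A3, so the numbers 3 and 4 overlapped, and at numbers 1, 2, 5 and 6 all 16 samples were at most 91.6. The difference at number 4 was 0.44 (adjusted p = 0.0465), a call that was lost in 16 of 24 fits that each left out 1 sample, among them those without A4 (adjusted p = 0.237), B4 (0.167) or C4 (0.155), and also under quantile normalization (0.0618) and 75th percentile scaling (0.0506). Without both A4 and B4, which held skeletal muscle transcripts, the number 4 difference was 0.32 (adjusted p = 0.681). At number 2 Ltc4s was 62.6 to 72.3, lower by 0.50 (adjusted p = 0.00603).

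Markers of other cells moved at number 3 too. The alveolar macrophage list summed to 36457 to 46471 at number 3 and to 17857 to 34229 elsewhere, and 4 of its 10 genes, Pparg, Cd68, Mrc1 and Siglec1, were higher there, against 2.89% of all genes, while Marco, Chil3 and Ear2 were at most 9.72, 14.6 and 31.9 in any sample. By letter the list ranged from 17969 to 46471 in A, 19131 to 37499 in B, 18526 to 44154 in C, against 17857 to 36457 in G. The eosinophil list was 1841 to 2648 at number 3 and 1134 to 1837 elsewhere, with Siglecf, most of the sum, the 1 of 6 genes that passed. With the macrophage list, rho was 0.73 for Lta4h, 0.51 for Alox5ap, 0.27 for Alox5 and 0.27 for Ltc4s, and that of Lta4h with the alveolar type 2 list was 0.81. Of that list, 4 of 8 genes were higher at number 3, and all 8 had an unadjusted p under 0.05 there. At number 2, 4 of 10 macrophage genes and 4 of 8 alveolar type 2 genes were higher too, against 11.5% of all genes. There Alox5 and Ltc4s were lower, and Alox5ap and Lta4h did not pass. The part of these cells in the differences was not tested.

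**Figure D3:**
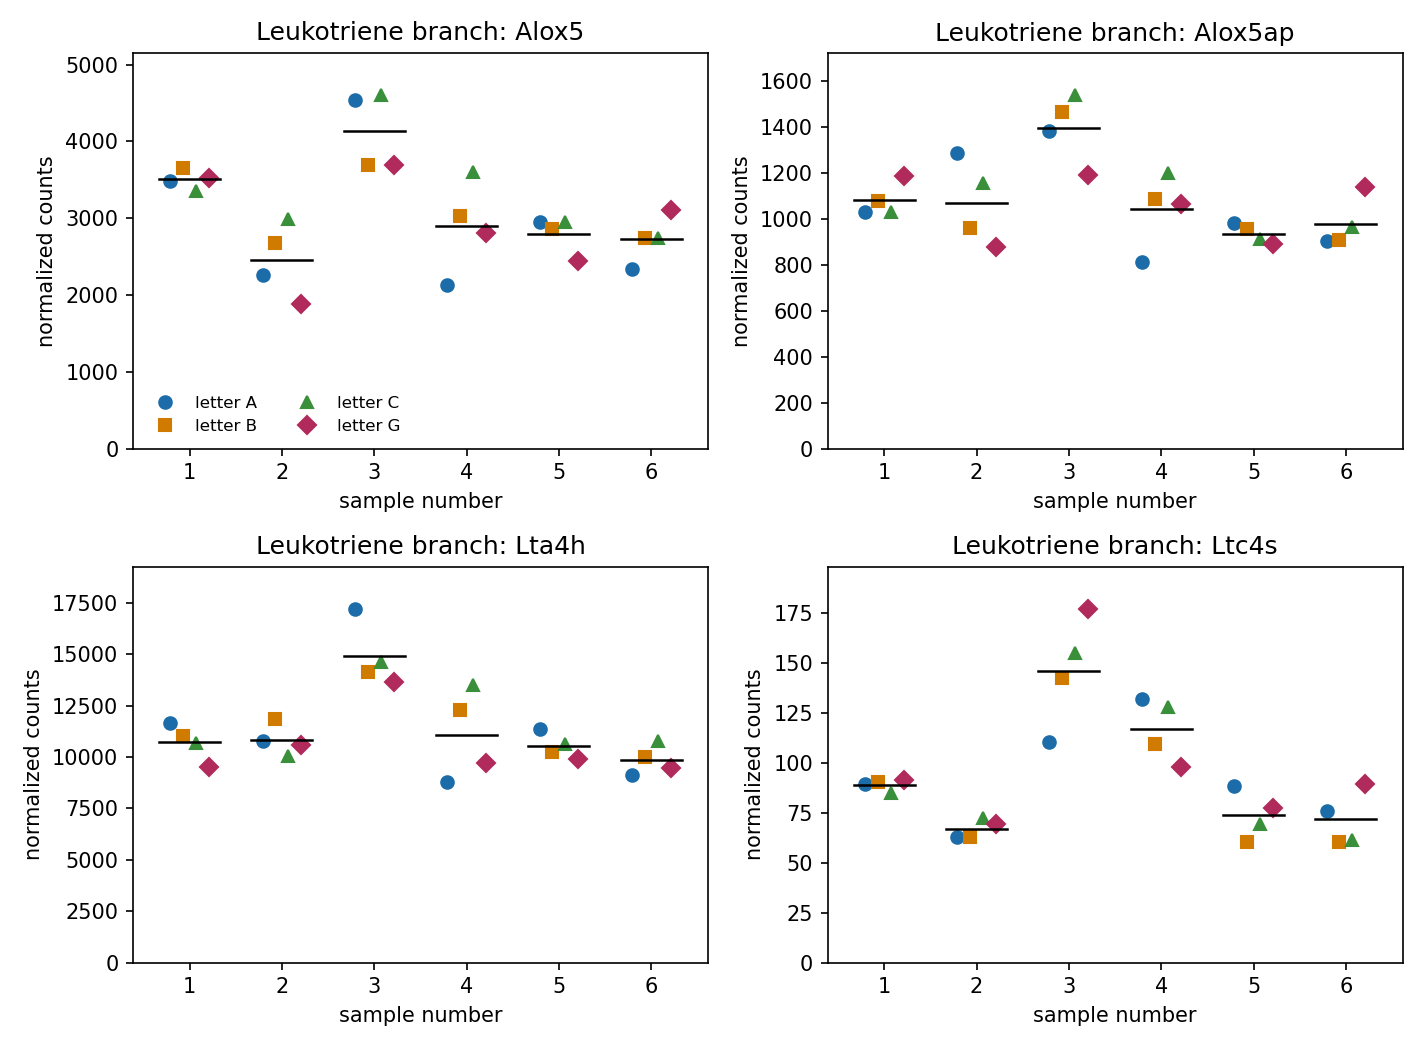
Alox5, Alox5ap, Lta4h and Ltc4s in normalized counts by sample number, 1 symbol per sample and letter, with a line at the mean of the 4 samples. In all 4 panels the line is highest at number 3, and for Ltc4s number 4 is second.

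Alox12, the platelet lipoxygenase, varied little. It was 795, 794, 953 and 854 at number 1 and 1156, 1119, 1055 and 1038 at number 2, and over all samples 794 to 1156. The samples numbered 1 were lower than the rest by 0.23 on the log2 scale (SE 0.058, limma adjusted p = 0.0113), and those numbered 2 higher by 0.21 (SE 0.058, adjusted p = 0.0142). C1 lay above several samples of other numbers, and A3, A5 and B5 lay among those numbered 2. The first call was lost without A1 (adjusted p = 0.116) or B1 (0.105), and the second without A2 (0.0756), under quantile normalization (0.16, adjusted p = 0.0615) or without letter A, B or G (0.0690, 0.0776 and 0.0570). Its rho with the platelet list was 0.06 and with Alox15 0.20.

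In the prostaglandin branch, Ptgs1, the constitutive cyclooxygenase, was 3638, 3014, 3583 and 2527 at number 3. A3 and C3 stood above all other samples, which reached 3033 in B2, and G3 lay within their range. The log2 difference was 0.32 (SE 0.080, limma adjusted p = 0.0227), and it was lost without A3 (adjusted p = 0.182) or C3 (0.186). Its rho with Lta4h was 0.65.

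Ptges, the inducible prostaglandin E2 synthase, was low in most samples and high in 2 of them. At number 2 it was 398 in A2, 31.8 in B2, 180.0 in C2 and 39.6 in G2. The other 20 samples lay between 6.07 and 65.4, so A2 and C2 stood above all others and B2 and G2 did not. The log2 difference at number 2 was 2.31 (SE 0.44, limma adjusted p = 0.000714), and without A2 and C2 it was 0.98 (adjusted p = 0.242). The F test across numbers (adjusted p = 0.0102) was lost without A2 (0.0824) or C2 (0.0745).

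A2 and C2 also had the highest sums of the neutrophil and type 2 immunity lists. The neutrophil list summed to 32249 in A2 and 20270 in C2, against 8239 in B2, 5315 in G2 and 2877 to 16817 in the other samples, and 1 of its 9 genes, Csf3r, passed at number 2, where 21.8% of all genes did. The type 2 immunity list was 17278 in A2 and 10215 in C2 and at most 6732 elsewhere, with 3 of 8 genes called at number 2 (Ccl24, Arg1 and Retnla, 2 higher and 1 lower), and its rho with Ptges was 0.75. In that list Retnla, Clca1 and Arg1 reached 11055, 5096 and 3595. Il4, Il13 and Chil4 were at most 7.19, 10.9 and 5.88 in any sample. Other lists moved with Ptges as well. The skeletal muscle list had a rho of 0.64, and 0 of its 8 genes passed at number 2. Its sum was highest in A4, where Ptges was 65.4, and next highest in B4, where Ptges was 28.0. The alveolar type 1 list had a rho of -0.72, its lowest sum in A2 (260192) and 7 of 8 genes lower at number 2, the endothelium list a rho of -0.57 and 7 of 8 lower, and the proliferation list a rho of 0.56 and 5 of 6 higher, against 10.3% of all genes lower and 11.5% higher. By letter the neutrophil list ran from 2877 to 32249 in A, 3371 to 16817 in B, 4060 to 20270 in C, against 4258 to 13214 in G. Ptgs2 was also highest in A2, at 498, while C2 at 283 was within the range of other samples. The part of these cells in the Ptges values was not tested.

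Hpgd, the dehydrogenase that inactivates prostaglandins, changed at 4 of the 6 numbers and had the smallest F-test p of the members (limma adjusted p = 1.37e-05). At number 4 it was 1337, 1298, 1620.2 and 1281, below all 20 other samples, the lowest of which was C3 at 1696. The log2 difference was -0.996 (SE 0.12, adjusted p = 0.000136). At number 3, with 2185, 1801, 1696 and 1854, it was lower by 0.46 (adjusted p = 0.0257), a call lost without B3 (0.142) or C3 (0.217).

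Hpgd was higher at numbers 1 and 6, whose samples overlapped with those numbered 2 and 5. At number 1 the values were 3784, 4251, 3502 and 2813, a log2 difference of 0.64 (SE 0.12, limma adjusted p = 0.00130). At number 6 they were 3082, 3303, 3463 and 3482, a difference of 0.53 (adjusted p = 0.00890). Number 2 was split, with 3281 and 3117 in B2 and C2 and 1732 and 1779 in A2 and G2. G was the lowest letter at numbers 1, 4 and 5 and the highest at number 6. Alox15 and Hpgd stood at opposite ends at number 4 in letters A, B and C, but not in G, where Hpgd was 1281 and Alox15 1949, and their rho over all samples was -0.12.

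A4 and B4, which held skeletal muscle transcripts, are 2 of the samples numbered 4. Without those 2 samples the Hpgd difference there was -0.87 (limma adjusted p = 0.0706), from C4 and G4 alone. The part of muscle tissue in the Hpgd values was not tested. With the mast cell list, Hpgd had a rho of 0.84, and Kit, at 5650 to 12902, made up most of that sum. The list summed to 7317 to 11807 in A, 6824 to 13716 in B, 8397 to 13858 in C, against 6692 to 11854 in G, and at number 4, 2 of its 11 genes, Kit and Cma1, passed in opposite directions, against 4.74% of all genes. At number 1, where Hpgd was higher, the median log2 difference of the 11 genes was -1.02, with 1 gene called higher and 2 lower. Their part in the Hpgd values was not tested.

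**Figure D4:**
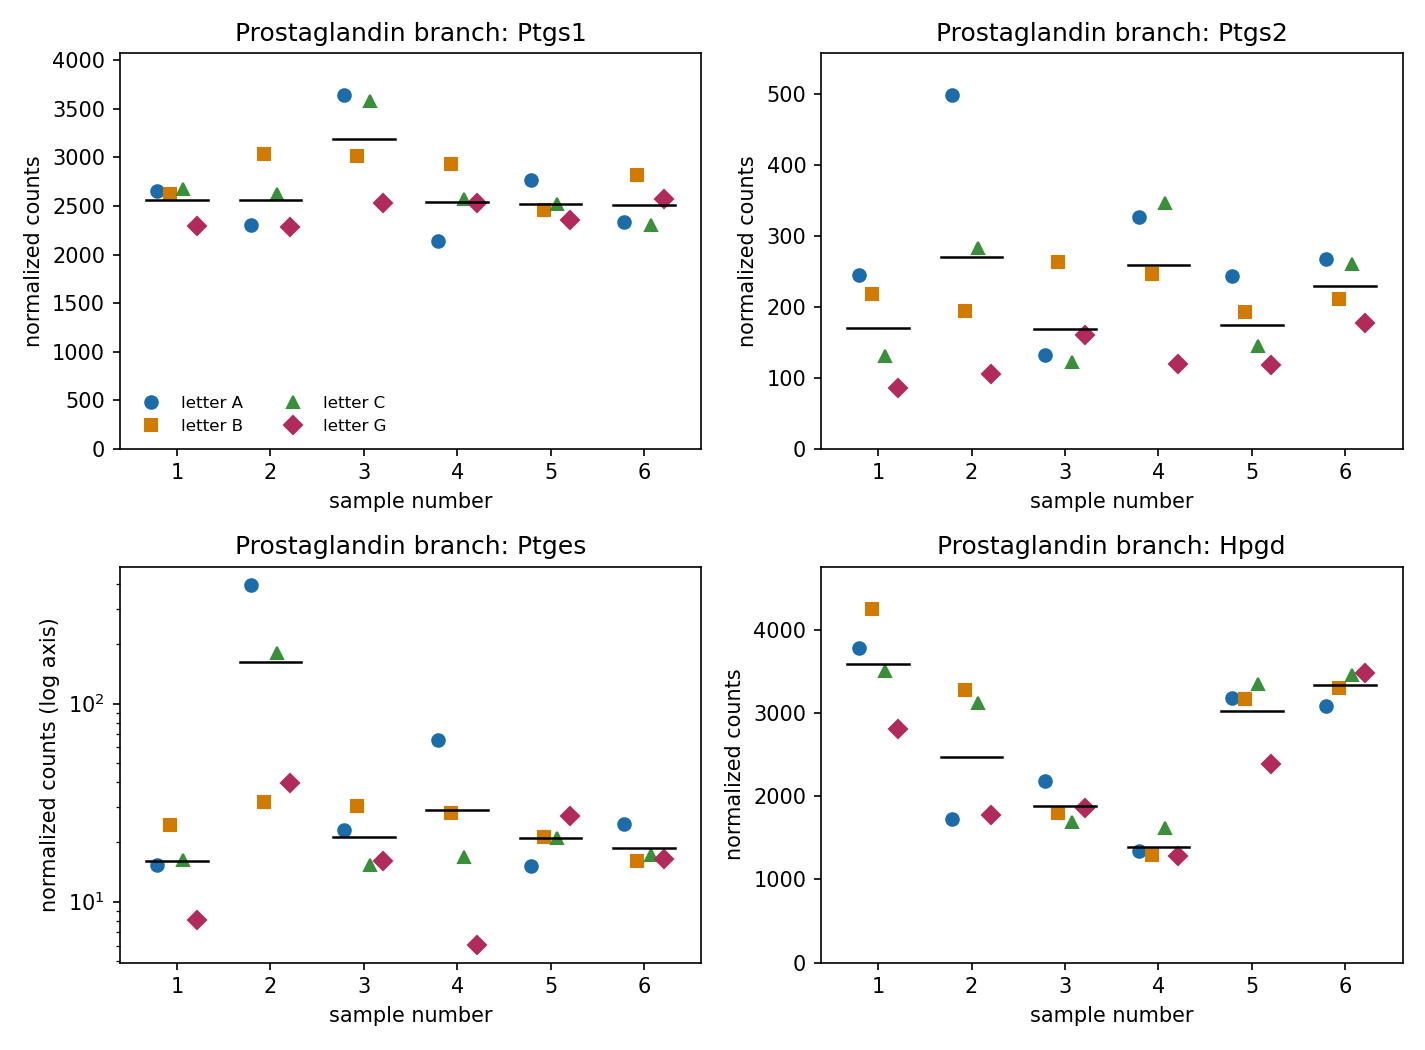
Ptgs1, Ptgs2, Ptges (log axis) and Hpgd in normalized counts by sample number, 1 symbol per sample and letter, with a line at the mean of the 4 samples. Ptges is high only in A2 and C2 (398 and 180), and the 4 Hpgd samples at number 4 (1281 to 1620) lie below the rest.

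The wider pathway was followed through 7 lists of other genes, of which 56 of 59 were in the table. By letter, 0 of the 56 passed in limma, in the F test or in any pair, and 4 had an unadjusted p under 0.05 in the F test. By number, 31 of 56 (55.4%) passed the F test, against 31.5% of all genes: 7 of 13 phospholipases A2, 1 of 4 other lipoxygenases, 5 of 9 other prostanoid synthases, 3 of 6 genes of leukotriene synthesis and trimming, 5 of 8 of transport and breakdown, 6 of 9 prostanoid receptors and 4 of 7 receptors for leukotrienes and lipoxins. Against the mean of the other numbers, 20 of the 56 (35.7%) passed at number 2, 9 higher and 11 lower, where 21.8% of all genes did. At number 1, 10 passed (17.9% against 11.9%), 5 in each direction. Number 3 had 6 (10.7% against 4.98%), 4 higher and 2 lower, and number 6 had 6 (10.7% against 8.13%), 3 in each direction. Number 4 had 1, higher (1.79% against 4.74%), and number 5 had 1, lower (1.79% against 1.97%). The pathway median at number 3 was -0.06, while that of the 9 members was 0.32.

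Among the enzymes that release arachidonic acid, 2 phospholipases were higher at number 3, as were the leukotriene genes. Pla2g2d, a secreted phospholipase of resident immune cells, was 8449.8, 8500.3, 7542 and 8013 there and at most 7295 elsewhere, a log2 difference of 0.90 (limma adjusted p = 9.23e-05). Pla2g15, a lysosomal phospholipase, was 8198 to 9413, with a difference of 0.64 (adjusted p = 0.00125), and B4 at 8338 reached into that range. Pla2g2a, a secreted phospholipase induced in inflammation, was 5185 in A2, 1135 in C2, 863 in B2 and 407 in G2, against 196 to 814 elsewhere. Its difference at number 2 was 1.79 (adjusted p = 0.000442), and without A2 and C2 it was 0.81 (adjusted p = 0.0824), so it shared with Ptges both its high samples and its dependence on them.

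Of the synthases and the genes of transport and breakdown, Tbxas1, thromboxane synthase, was 1674 to 2092 at number 2, higher by 0.39 (limma adjusted p = 0.00276). It was higher at number 3 as well, by 0.46 (adjusted p = 0.00376), and lower at number 5 by 0.36 (0.0383) and at number 6 by 0.30 (0.0394). Ptgr1, a reductase that inactivates prostaglandins and leukotriene B4, was 775 to 1170.5 at number 2, lower by 0.50 (adjusted p = 0.000175). Slco2a1, the transporter that carries prostaglandins into cells ahead of Hpgd, was 59362 to 65517 at number 1 and at most 55852 elsewhere, a difference of 0.35 (adjusted p = 0.000361). Slco2a1 and Hpgd were thus both higher at number 1, but not alike elsewhere. Slco2a1 was lower at number 2 by 0.29 (adjusted p = 0.000710), where Hpgd did not pass. At numbers 3, 4 and 6, where Hpgd passed, Slco2a1 did not, with differences of -0.08, 0.05 and -0.005. Aloxe3, an epidermal lipoxygenase, was 378 to 471 at number 2, lower by 0.46 (adjusted p = 0.00110).

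Receptors moved in both directions. Ptger4, an E2 receptor, was 1367 to 1634 at number 6, higher by 0.50 (limma adjusted p = 0.000638), with A2 at 1479.7 inside that range. Ptger2, another E2 receptor, was 366 to 518 at number 2, higher by 0.65 (adjusted p = 0.000679), and without A2 and C2 the difference was 0.31 (adjusted p = 0.177). Ptgfr, the receptor for prostaglandin F2alpha, was 114, 142 and 128 in A3, B3 and C3 and 284 in G3, lower by 0.77 (adjusted p = 0.00443). That call was lost without C3 (adjusted p = 0.0538), and G3 lay well inside the range of the other samples. Ptgdr2, a D2 receptor of type 2 immune cells, was 295 to 378 at number 1, higher by 0.58 (adjusted p = 0.00161). Cmklr1, a receptor for chemerin and resolvin E1, was 3500.2 to 5143 at number 2, lower by 0.38 (adjusted p = 0.000282).

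**Figure D5:**
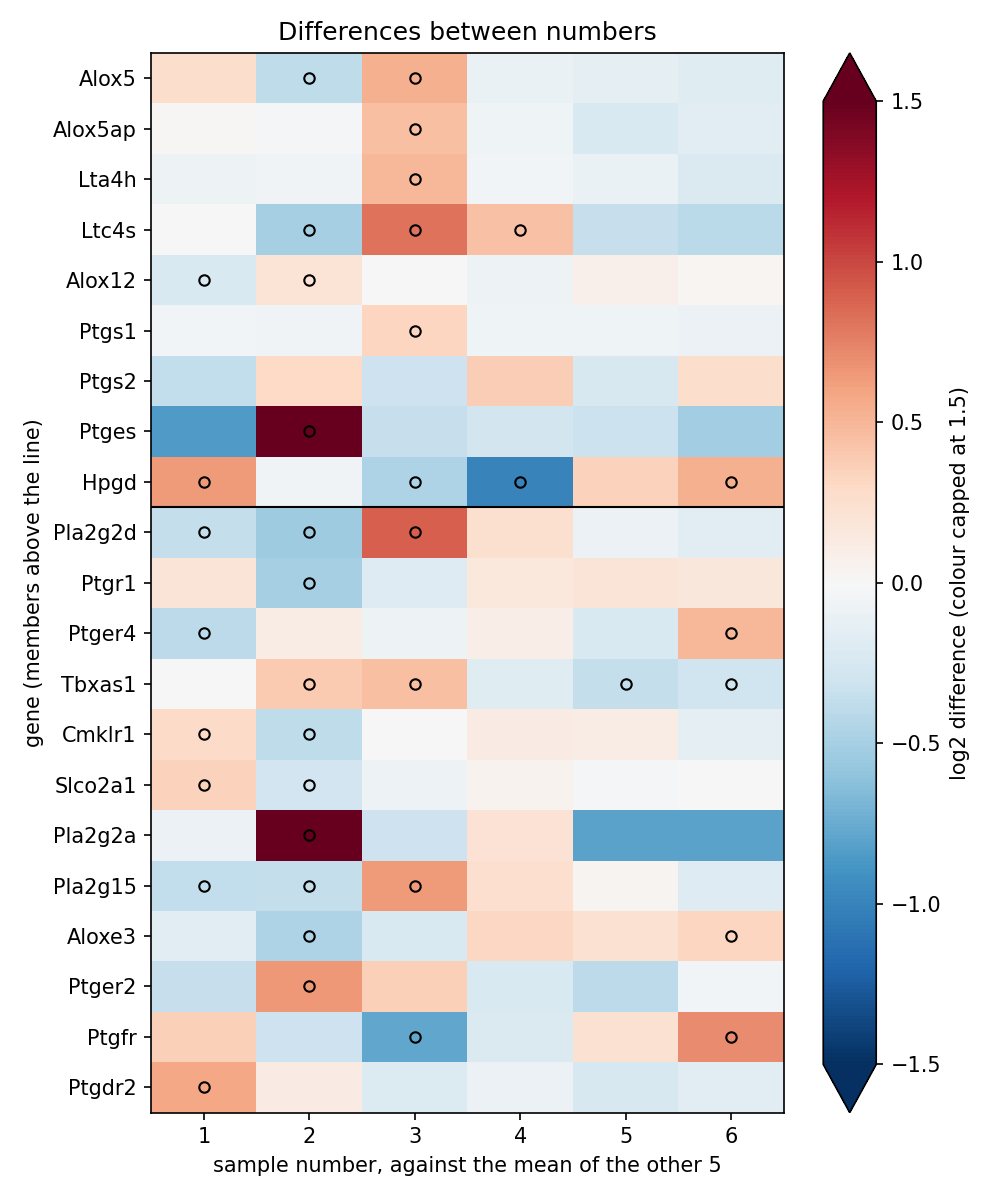
Log2 difference of each number against the mean of the other 5, on the log2(value + 1) scale, for the 9 tested members (above the line) and the 12 named pathway genes, with a circle where the limma adjusted p was under 0.05. Column 3 holds 6 circles among the members, 5 of them higher, and the cells of Ptges and Pla2g2a at number 2 exceed the colour range of 1.5.

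The genes most like the other members differed from member to member. The highest rho was that of Mfsd14b with Alox5 (0.85), Noct with Alox5ap (0.87), Chmp7 with Ltc4s (0.85), Gcnt2 with Ptgs1 (0.82), Il12a with Ptgs2 (0.83) and Asb2 with Ptges (0.82). For Lta4h it was the mouse gene model Gm4854 (0.91), followed by Lipa, the lysosomal acid lipase (0.88). For Hpgd it was Cttnbp2 (0.91), followed by Maoa, a monoamine oxidase (0.91). For Alox12 no gene reached 0.80.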

How the data were processed

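The values came from 1 deposited table with 30667 genes in rows and 24 samples in columns. Its unit is a signal that looks like read counts normalized by the authors to a common library size. STAR and the mouse build GRCm38 are named, with no role, per the submitters' processing notes; the counting tool, the annotation and the normalization are not given in the sources used here. Low values lay near whole numbers but no constant step gave back the reads, so the depth before normalization is unknown and count models were not used. Of the row names, 52.6% matched a rat RefSeq symbol (GRCr8, names and promoters only), among them all 10 members, and 38.2% had the form of mouse gene-model names.

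The letter and the number were read from the sample titles. Limma 3.58.1 (R 4.3.3) with a mean-variance trend was fitted to log2(value + 1) of all genes with a mean of at least 0.5, which every gene passed, with Benjamini-Hochberg adjustment across the 30667 genes and a threshold of 0.05. Letters were compared by an F test with 3 degrees of freedom and in 6 pairs. Numbers were compared in an additive fit of letter and number, by an F test with 5 degrees of freedom and each against the mean of the other 5. A fold change on this scale understates the change of low genes. The fits were tested on simulated data first. The members and lists were chosen with earlier results of these data known. Pathway genes were named if they passed any test, and the 12 of 32 with the smallest adjusted p are given; the 8 genes with the highest rho with Alox15, and up to 3 for each other member with a rho of at least 0.8, were eligible as like genes, of which 1 is not reported here. Alternatives were a pseudocount of 0.1, a minimum mean of 10, no filter, quantile normalization, scaling to the 75th percentile, leaving out samples or letters, and fits with the number as a block or with no letter term.

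Equal numbers paired letters A and B, and B and C, by the similarity of their deviations: all 6 correlations exceeded 0.1 (0.169 to 0.590 and 0.127 to 0.596). In the other 4 pairs of letters the lowest was -0.05 to 0.09 and the highest 0.433 to 0.654. Of their 6 correlations, 4 or 5 exceeded 0.1, so they fell short of this rule without being unlike. Where the number paired the samples, the block changed no call.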

Additional observations from a re-analysis of the deposited data

Results flagged for a closer look

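In 7 of 36 sets of 6 samples (the 9 tested genes in 4 letters) 1 sample stood apart from the other 5 by a gap, as a share of the range, above Dixon's 95% limit; chance gives about 1 in 20. Samples numbered 3 held 5 of these, and 4 of the 5 were in the leukotriene branch: Alox5ap was 1463 in B3 (next 1085), Lta4h was 17187 in A3 (next 11670) and 13625 in G3 (next 10562), and Ltc4s was 177 in G3 (next 97.9). Ptgs1 was 3583 in C3, with 2676 next. Ptges was 398 in A2 (next 65.4) and 180.0 in C2 (next 20.9), the samples with the highest neutrophil list sums. The leukotriene samples are those behind the number 3 differences already given.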

How the results depend on the processing

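No direction reversed under any alternative. Counts by letter were 0 for the 9 members and for the 56 pathway genes under every alternative and with any 1 sample left out, with 1 exception. With the number as a replicate block, the pairs of letters gave 1 call among the members and 1 among the pathway genes. Both were for G against A: Ptgs2 (-1.09, limma adjusted p = 0.0316) and Ptgfr (0.68, adjusted p = 0.0432). For that pair 4 of the 6 same-number correlations exceeded 0.1, short of the 6 taken as pairing. Over all genes that block raised the calls from 2 to 391 for G against A, from 1 to 2 for G against B and from 2 to 11 for G against C. Number calls by the F test, 7 members and 31 pathway genes, were 6 to 8 and 26 to 31 with 1 sample left out. The pathway count fell to 19 without letter A, 16 without B and 18 without C, fits with fewer samples. Calls summed over the 6 number comparisons, 15 for the members and 44 for the pathway, were 11 to 17 and 37 to 52 with 1 sample left out, 9 for the members without letter B, and 29, 25 and 26 for the pathway without A, B and C. Lta4h, Ltc4s and Alox5 at number 3 and Hpgd at number 1 passed under every alternative run. Without A2 and C2, left out after the data were seen, Ptges, Ltc4s, Alox12, Pla2g2a and Ptger2 lost their calls at number 2, and Ltc4s at number 4. Without letter G, Hpgd at number 6 (0.43, adjusted p = 0.0577) and Alox5 (0.0671) and Alox12 (0.0570) at number 2 lost their calls. Quantile normalization ended the calls of Alox12 at number 2 and Ltc4s at number 4, and 75th percentile scaling that of Ltc4s at number 4. No filter gives the same genes as the filter used. Depth limits cannot be given.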
